A study of Mus musculus with 20 samples.

Results

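The serpins are a superfamily of proteins that share a fold with an exposed reactive centre loop. Most members are suicide inhibitors: a target protease cuts the loop as if it were a substrate and is then trapped in a dead complex, so the residues of the loop set which protease is caught. Some members keep the fold without the inhibition, among them the collagen chaperone HSP47, encoded by Serpinh1. Secreted members of clade A, such as alpha-1-antitrypsin, are mainly made by the liver, and members of clade B act mostly inside cells.

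The family was taken here as the protein-coding genes of the deposited table whose symbol begins with Serpin, followed by a clade letter from a to i and a number. The members were chosen by name and gene type, with no measured value in the rule, and 60 genes that met it, of 54986 in the table, are described. By clade, 24 belonged to clade A, 26 to clade B, 2 each to clades E, F and I, and 1 each to clades C, D, G and H. Named pseudogenes of the family were left out. Values are CPM, read counts scaled to the library's total, from which the constant of 0.0001 added by the authors was subtracted, and a gene was tested if it reached 1 CPM in at least 2 of the 20 libraries. In all, 17 of these members were tested, of 17103 genes tested in the table. Because the family was selected with earlier results of these data known, the p-values below describe the spread between libraries and are no independent support.

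The study followed the mouse mammary epithelial line NMuMG through 10 conditions with 2 RNA-Seq libraries each. The untreated line, the line given TGFβ for 4 days (NMuMG-TGFb) and the line silenced with an shRNA for hnRNP E1, the product of Pcbp1 (E1KD), were sequenced beside M1P and L1P. M1P was re-cultured from a primary tumor and L1P from lung metastases, both about 12 weeks after E1KD cells were placed in the mammary fat pad of 6-week-old NOD/SCID mice. A second kind of library held NMuMG with an Empty vector, Platr18 clone 12 and Platr18 clone 16 (NMuMG lines that overexpress the long noncoding RNA Platr18), together with the E1KD line carrying either a scrambled shRNA, named E1KD SCR, or one against Platr18, named E1KD Platr18 KD. The hosts lack functional B and T cells, and M1P, L1P and each clone are 1 line apiece, so their duplicates share that line's history. Each other condition also has a single label, and no separate lines are named for its duplicates. Nothing in the sources used here says that duplicates came from separate cultures, and p-values therefore measure only the spread between libraries, which may be technical.

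The kinds of library differed in their RNA makeup (mitochondrial mt-Rnr2 at 333 to 492 CPM in the first and 113874 to 165149 CPM in the second), so comparisons were made within a kind only. By the size of the steps between low values, 1 read was worth 0.0167 to 0.0197 CPM in the first kind and 0.0068 to 0.0159 CPM in the second, which was sequenced more deeply. The values of the first kind summed to 547491 to 728645 CPM per library, and the highest sum was that of E1KD replicate 1, whose genes had a median log2 ratio of 0.29 to E1KD replicate 2. Pcbp1 stood at 287 and 312 CPM in NMuMG and at 16.6 and 14.2 in E1KD. Lncenc1, the symbol of Platr18 in the table, was at 3092 and 3096 CPM in clone 12, at 813 and 820 in clone 16, at 3.68 and 3.06 with the Empty vector, at 2.92 and 3.10 in E1KD SCR and at 0.14 and 0.17 in E1KD Platr18 KD. Epithelial markers (Cdh1, Ocln, Epcam, Krt8, Krt18) summed to 1336 to 4007 CPM over all libraries, mostly Krt8 and Krt18, with Epcam at 0.017 CPM at most. The 4 endothelial markers summed to at most 0.54 CPM, the 4 lung epithelial markers to at most 0.039 CPM and the 4 adipocyte markers to at most 0.41 CPM. Leukocyte and macrophage markers summed to 2.38 to 7.21 CPM. Of the 6, 3 reached 1 CPM in at least 2 libraries of the first kind, and 2 did so in the second. Adgre1 and C1qa were at 0 in every library of the first kind. The sum was 2.67 and 2.72 CPM in NMuMG, 6.47 and 7.21 in NMuMG-TGFb, and 4.32 and 2.86 in E1KD. It was 6.18 and 5.65 CPM in M1P and 6.84 and 7.10 in L1P, and its part in the serpin values was not tested. In bulk RNA, fewer cells of a type and less RNA per cell cannot be told apart.

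The 5 copies of the alpha-1-antitrypsin gene, Serpina1a to Serpina1e, carry the most uniform pattern in the family, and their sequences show both how alike they are and where they part. They lie within 103728156 to 103958976 on the reverse strand of chromosome 12 (GRCm38). In the annotated transcripts, 29.4% (Serpina1b) to 74.2% (Serpina1c) of the distinct 50-base words of a copy also occur in another gene, mostly another copy, so reads could have been split between them and values of single copies are uncertain. The coding sequences of Serpina1b to Serpina1e were 96.3% to 96.7% identical, pair by pair. The stretches printed next are 84 bases each of coding sequence around the reactive centre loop, within 1 exon, read from the GENCODE transcripts of GRCm38, and capitals mark the 18 positions at which the copies are not all the same.
Serpina1a, chr12:103853747-103853830: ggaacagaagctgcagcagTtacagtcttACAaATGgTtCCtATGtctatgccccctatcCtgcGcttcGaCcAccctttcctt
Serpina1b, chr12:103728314-103728397: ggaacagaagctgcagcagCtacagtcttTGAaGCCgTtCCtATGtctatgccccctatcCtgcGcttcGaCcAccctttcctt
Serpina1c, chr12:103895084-103895167: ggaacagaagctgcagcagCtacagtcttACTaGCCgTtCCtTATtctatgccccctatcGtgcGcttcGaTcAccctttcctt
Serpina1d, chr12:103763752-103763835: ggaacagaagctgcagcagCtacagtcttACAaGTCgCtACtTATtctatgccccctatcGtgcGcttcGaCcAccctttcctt
Serpina1e, chr12:103947090-103947173: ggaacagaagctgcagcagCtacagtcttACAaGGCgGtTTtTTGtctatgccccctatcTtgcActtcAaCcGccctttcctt
Pairs of copies differed at 5 (Serpina1c and Serpina1d) to 12 bases of this stretch. The codon before the shared tctatg, which encodes the bait residue cut by the protease, was ATG in Serpina1a and Serpina1b, TAT in Serpina1c and Serpina1d and TTG in Serpina1e.

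Upstream, the copies share more. A run of 59 bases, in capitals in the 110-base windows printed here because all 5 copies moved together, was identical in the 5 promoters (RefSeq, GRCm38.p6, reverse strand, windows of 250 bases before to 50 after each gene start) and occurred whole in 0 of the 27020 other promoters.
Serpina1a, chr12:103863590-103863699: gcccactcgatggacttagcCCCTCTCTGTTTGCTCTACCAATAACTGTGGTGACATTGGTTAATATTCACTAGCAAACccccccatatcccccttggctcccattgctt
Serpina1b, chr12:103738165-103738274: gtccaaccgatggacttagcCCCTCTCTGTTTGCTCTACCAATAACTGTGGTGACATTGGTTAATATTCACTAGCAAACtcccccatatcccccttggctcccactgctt
Serpina1c, chr12:103904927-103905036: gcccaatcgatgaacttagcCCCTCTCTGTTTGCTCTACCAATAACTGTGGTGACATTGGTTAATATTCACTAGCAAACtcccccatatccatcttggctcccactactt
Serpina1d, chr12:103773599-103773708: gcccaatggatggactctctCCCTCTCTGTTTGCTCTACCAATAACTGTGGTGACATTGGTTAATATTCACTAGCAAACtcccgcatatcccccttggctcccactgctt
Serpina1e, chr12:103956925-103957034: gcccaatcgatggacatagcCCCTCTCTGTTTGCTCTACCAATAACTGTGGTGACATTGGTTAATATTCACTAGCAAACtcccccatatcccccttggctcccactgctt
The run holds GTTAAT, an arm of the palindrome that HNF1 factors are known to bind. The run was picked because the 5 copies share it, so these 6 letters had to occur in 5 of 5 copies. Searched on both strands, they occurred in 7.20% of all 27025 promoters, and no enrichment is read from this. A match describes the letters and is not evidence of a bound site. A promoter entry was found for 52 of the 60 members.

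Of the 17 tested members, 5 were of clade A, 8 of clade B, 2 of clade F, 1 of clade H and 1 of clade I. In 5 of them (Serpinb6a, Serpinb6b, Serpinb8, Serpinb9 and Serpinb9b) every condition had a library at 1 CPM or more. Serpinf1 reached that level in NMuMG-TGFb alone and Serpinb9e in L1P alone, so their passing the filter already required a difference. Serpinf2 and Serpina1e reached it only in NMuMG and the Empty vector. Within the first kind, Serpina1a, Serpina1c and Serpina1d reached it only in NMuMG, and Serpini1 only in NMuMG-TGFb. The p-values of such genes against those groups are descriptive, and no count over the tested members is taken as support. Among these 17, and per kilobase of exon, the highest level in NMuMG was that of Serpina1b at 21.2 CPM per kb, next to Serpinb6b at 20.8 and Serpinb6a at 16.6. In NMuMG-TGFb Serpinb6b stood above the other 16 at 30.6 CPM per kb, in E1KD Serpinb9b at 48.3, in M1P Serpinh1 at 83.7 ahead of Serpinb9b at 74.6, and in L1P Serpinb9b at 72.0 ahead of Serpinh1 at 61.5. In the second kind of library Serpinb6a was highest of the 17 in every condition, from 30.3 CPM per kb in E1KD Platr18 KD to 67.0 in clone 16.

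**Figure D1:**
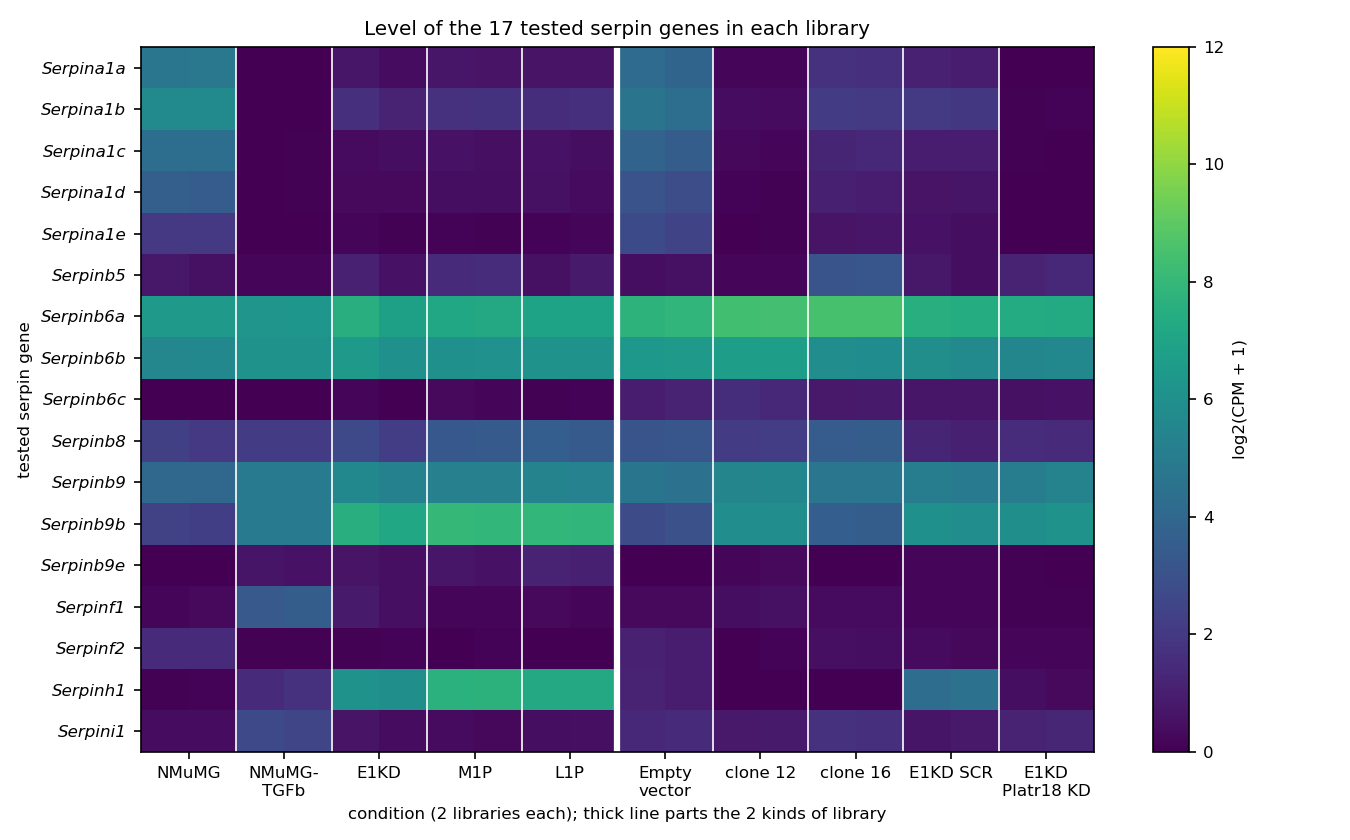
Level of the 17 tested serpin genes in each library as log2(CPM + 1), with 2 libraries per condition and the 2 kinds of library parted by a thick line. Serpinh1 and Serpinb9b are bright in E1KD, M1P and L1P, and the 5 Serpina1 copies are visible mainly in NMuMG and the Empty vector.

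A gene was called when it had an unadjusted p under 0.001 and a log2 fold change of at least 1 in size, from limma on log2(CPM + 1) with all 20 libraries in one fit; fold changes on this scale understate those of low genes. Standard errors pool the spread within all 10 conditions and are not the spread of the groups compared. For E1KD, whose replicates had the largest median log2 ratio, 0.29, the pooled errors and p-values can be too small. In the 9 comparisons 13 of the 17 tested members were called at least once, where 33.2% of all genes tested were, and Serpinb6a, Serpinb6b, Serpinb6c and Serpinb9e in none.

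Silencing of hnRNP E1 in NMuMG (E1KD against NMuMG) went with higher Serpinh1, Serpinb9b and Serpinb9 and with lower Serpina1a to Serpina1e and Serpinf2. These were 3 higher and 6 lower of 17, against 6.44% higher and 2.99% lower of all genes tested, and the median log2 fold change was 0.20 over the members and 0.17 over all genes. The Serpina1 copies share sequence, so they are not separate members to set against these shares. With the copies counted as 1 gene, 5 members were called. The positive median over all genes depends on scaling: with median-of-ratios factors it was 0.02, and the 1102 higher and 512 lower genes became 768 and 682, while with sums set equal they became 857 and 697. Under both scalings, and without E1KD replicate 1, 3 members were called higher and 6 lower. With only these 4 libraries fitted, 475 genes were higher and 283 lower, and 8 members were called. Of the epithelial markers, Krt8 overlapped between the groups and Krt18 was higher in E1KD, while Cdh1 was at 232 and 237 CPM in NMuMG and 205 and 149 in E1KD, and Ocln at 18.5 and 18.9 against 10.7 and 7.82. All 5 mesenchymal markers (Cdh2, Vim, Fn1, Zeb1, Snai1) were higher in E1KD, with sums of 530 and 551 against 1812 and 1333; the markers' part in the serpin values was not tested.

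Serpinh1, the endoplasmic reticulum chaperone of procollagen, moved furthest. Its level was 0.035 and 0.094 CPM in NMuMG and 71.5 and 61.2 CPM in E1KD, with no overlap. The log2 difference was 5.98 ± 0.11 (SE of the fit to all 20 libraries, n = 2 and 2 compared, limma adjusted p = 1.14e-14), the eighth in size of all genes tested. The lower group rests on a few reads, so no ratio is given. Serpinh1 shares none of its 50-base words with another gene.

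Serpinb9b, a mouse relative of the granzyme B inhibitor Serpinb9 that lies beside it on chromosome 13, was at 3.95 and 3.68 CPM in NMuMG and at 185 and 139 CPM in E1KD. That is a 42.5-fold ratio of means and a log2 difference of 5.07 ± 0.11 (limma adjusted p = 4.43e-14). The gene overlaps an antisense RNA, RP23-391I11.9, listed at 0.19 and 0.40 CPM in NMuMG and at 26.6 and 12.6 in E1KD, and strand use is not given in the sources used here, so reads of the pair could have been mixed. Serpinb9 itself, an inhibitor of granzyme B, stood at 14.9 and 15.2 CPM in NMuMG and at 46.8 and 37.3 CPM in E1KD. It rose by 1.42 ± 0.11 on the log2 scale (limma adjusted p = 5.20e-08), and missed the threshold when only these 4 libraries were fitted (unadjusted p = 0.0015 from limma).

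In the same comparison the 5 alpha-1-antitrypsin copies summed to 109 and 111 CPM in NMuMG and to 3.33 and 2.18 CPM in E1KD. Serpina1b, the highest copy, went from 50.6 and 51.6 CPM to 2.07 and 1.22 CPM, a log2 difference of -4.32 ± 0.12 (limma adjusted p = 6.54e-13). Differences of the other copies ran from -1.85 (Serpina1e) to -4.20 (Serpina1a). Treated as 1 gene, the sum changed by -4.90 ± 0.12 on the log2 scale (limma adjusted p = 2.51e-13). A pseudogene that overlaps Serpina1b, RP23-122J17.9, was at 8.69 and 8.41 CPM in NMuMG and at 0.26 and 0.11 in E1KD. Serpinf2, which encodes the plasmin inhibitor alpha-2-antiplasmin, was at 1.75 and 1.75 CPM in NMuMG and at 0.039 and 0.092 in E1KD, with a log2 difference of -1.37 ± 0.06 (limma adjusted p = 7.09e-11). Of the 6 hepatocyte markers, Apob was higher in E1KD, opposite to the Serpina1 copies, at 508 and 509 CPM in NMuMG and 780 and 664 in E1KD. The other 5 (Alb, Apoa1, Ttr, Fgb, Ahsg) summed to 3.24 and 3.39 CPM in NMuMG, mostly Ttr, and to 0.14 and 0.11 in E1KD. The part of either in the result was not tested.

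**Figure D2:**
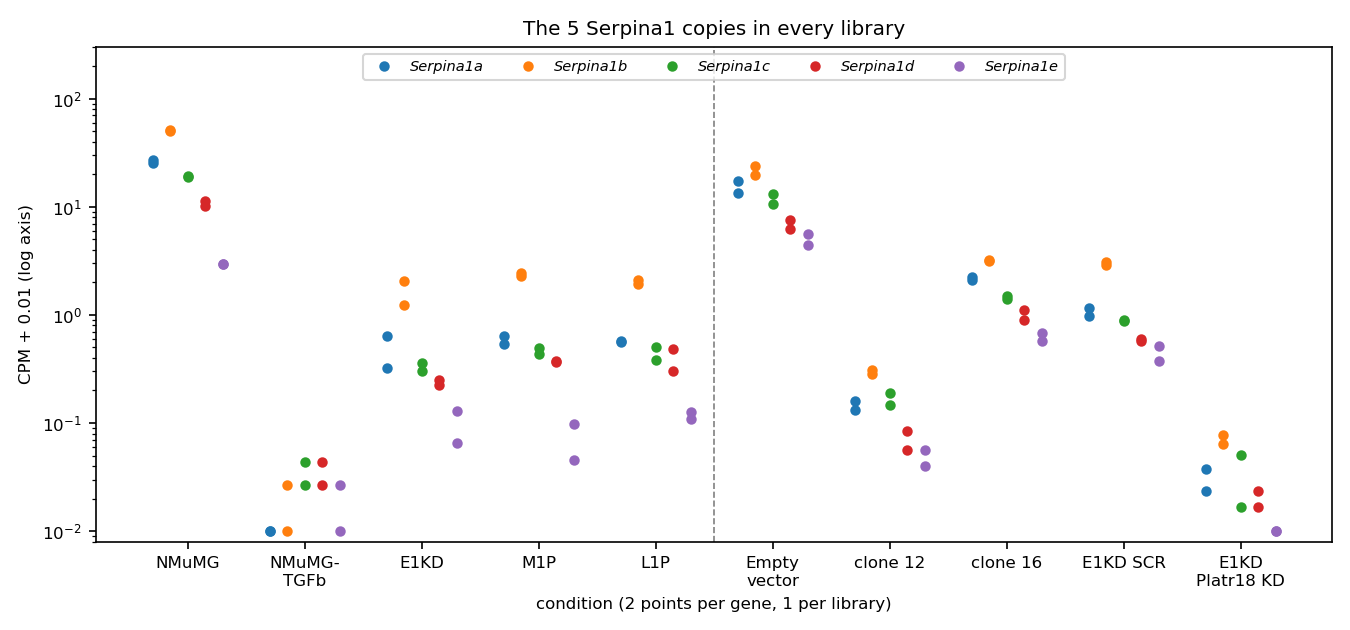
CPM plus 0.01, on a log axis, of the 5 Serpina1 copies in each library (2 points per gene and condition). The copies lie highest in NMuMG and the Empty vector and lowest in NMuMG-TGFb and E1KD Platr18 KD, and Serpina1b is the highest copy in every condition except NMuMG-TGFb.

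TGFβ (NMuMG-TGFb against NMuMG, which shares its NMuMG libraries with the comparison just given) was followed by higher Serpinf1, Serpinb9b, Serpini1 and Serpinh1 and by lower Serpina1a to Serpina1e and Serpinf2. That made 4 higher and 6 lower of 17, where 5.85% of all genes tested were higher and 7.67% lower, with a median log2 fold change of -0.03 over the members and -0.08 over all genes. With the Serpina1 copies counted as 1 gene, 6 members were called. With median-of-ratios factors the 1000 higher and 1311 lower genes became 1245 and 1074, and Serpinb9 joined the members called higher.

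Serpinf1, which encodes the secreted non-inhibitory factor PEDF, rose from 0.16 and 0.23 CPM to 9.13 and 10.8 CPM, by 3.20 ± 0.10 on the log2 scale (limma adjusted p = 2.02e-12). Serpini1, which encodes neuroserpin, an inhibitor of tissue plasminogen activator, was at 0.34 and 0.30 CPM without and at 5.17 and 4.75 CPM with TGFβ, a log2 difference of 2.18 ± 0.08 (limma adjusted p = 7.93e-12). Its groups, like those of Serpinf1, did not overlap.

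Serpinb9b was at 30.7 and 29.1 CPM with TGFβ, 7.85-fold above NMuMG, with its antisense neighbour at 2.31 and 2.46 CPM. Serpinh1 was at 1.77 and 2.30 CPM with TGFβ, a log2 difference of 1.51 ± 0.11 from NMuMG (limma adjusted p = 2.84e-08). The 5 Serpina1 copies summed to only 0.033 and 0.10 CPM with TGFβ, the lowest of the first kind of library, and Serpina1a was listed at 0 in both libraries. As 1 gene the sum changed by -6.70 ± 0.12 (limma adjusted p = 1.27e-14). Apob again went the other way, at 2129 and 2285 CPM with TGFβ, and the other 5 hepatocyte markers summed to 0.033 and 0.017 CPM. Fibroblast markers (Pdgfra, Dcn, Lum, Col1a1) summed to 31.2 and 39.3 CPM in NMuMG-TGFb and to at most 1.20 CPM in the other libraries of the first kind, Col1a1 making up 30.1 and 38.4 of them; their part in the serpin values was not tested.

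Set directly against each other, E1KD and NMuMG-TGFb differed in 5 members. E1KD was higher in Serpinh1, Serpinb9b and Serpina1b and lower in Serpinf1 and Serpini1, where 17.2% of all genes were higher and 6.17% lower, and the median log2 fold change was 0.29 over the members and 0.26 over all genes. With median-of-ratios factors the 2938 higher and 1055 lower genes became 1843 and 1718, and with equal sums 2415 and 1416; the members called were again 3 higher and 2 lower, also without E1KD replicate 1. Serpinh1 was higher in E1KD by 4.47 ± 0.11 and Serpinb9b by 2.38 ± 0.11 on the log2 scale (limma adjusted p = 1.49e-13 and 8.74e-11). Serpinf1 had a log2 difference of -2.79 ± 0.10 and Serpini1 of -2.06 ± 0.08 (limma adjusted p of 6.25e-12 and 9.89e-12). Serpina1b, at 2.07 and 1.22 CPM against 0 and 0.017, missed the threshold when only these 4 libraries were fitted (unadjusted p = 0.0026 from limma). In that fit 835 genes were higher and 531 lower, and 4 members were called.

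**Figure D3:**
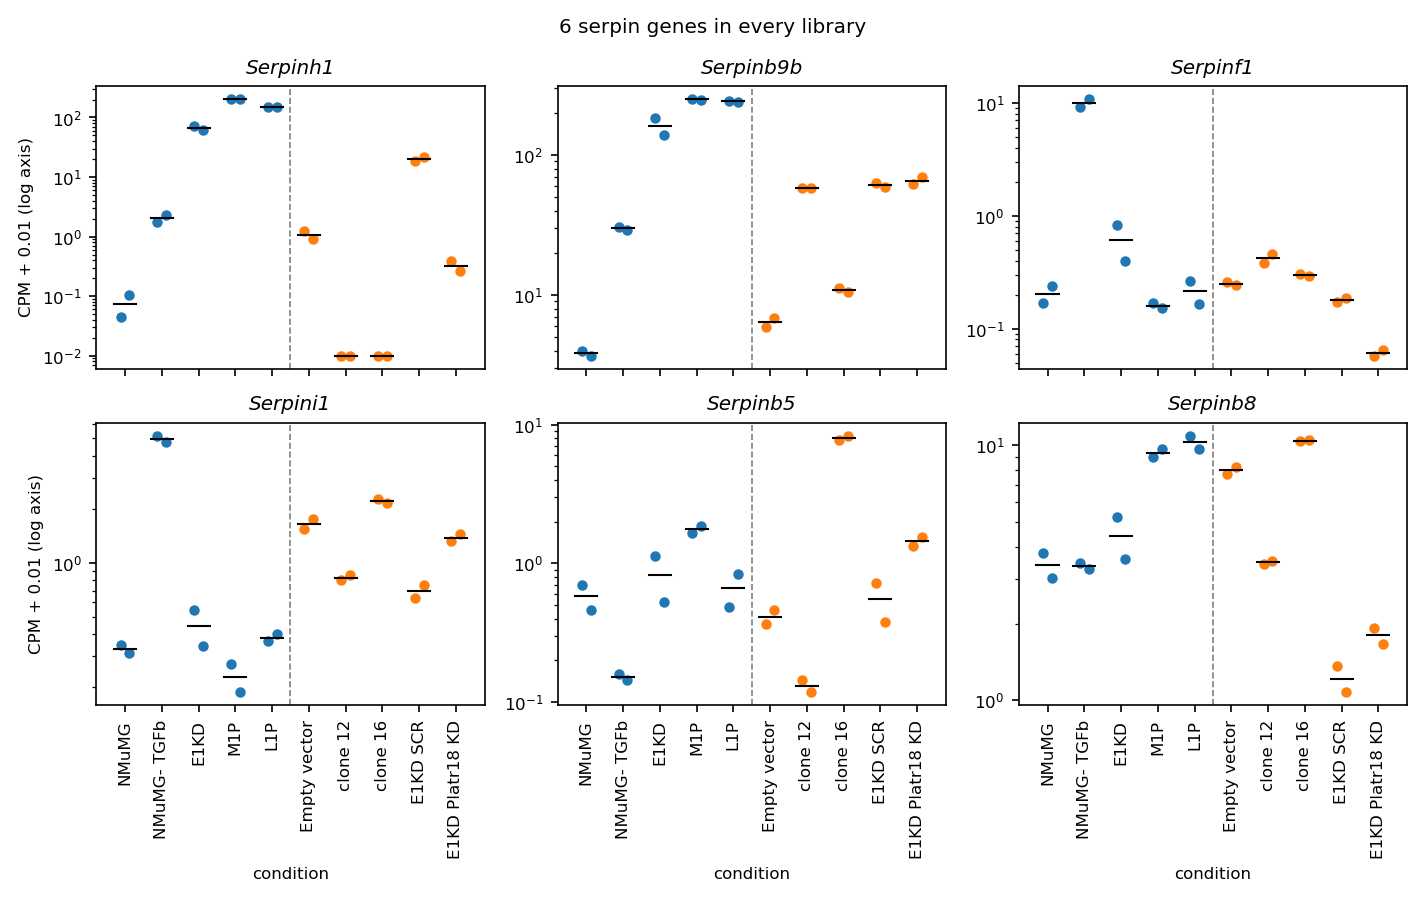
CPM plus 0.01, on log axes, of 6 serpin genes in each library; bars are the means of 2 libraries, and a dashed line parts the first kind (blue) from the second (orange). Serpinf1 and Serpini1 peak in NMuMG-TGFb, Serpinh1 and Serpinb9b in M1P, Serpinb5 in clone 16, and Serpinh1 lies at the floor in both Platr18 clones.

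Between the tumor line and its parent (M1P against E1KD), Serpinh1 was the only member called. It was at 71.5 and 61.2 CPM in E1KD and at 203 and 206 CPM in M1P, 3.08-fold higher, with a log2 difference of 1.61 ± 0.11 (limma adjusted p = 5.25e-08). Of all genes tested, 1.16% were higher and 2.43% lower, and the medians were 0.10 over the members and -0.17 over all genes. With median-of-ratios factors the 198 higher and 416 lower genes became 310 and 299, and with equal sums 316 and 338. With only these 4 libraries fitted they became 98 and 176. Serpinb8, a clade B gene on chromosome 1, was at 5.22 and 3.57 CPM in E1KD and at 8.99 and 9.68 CPM in M1P. Its log2 difference of 0.95 ± 0.13 fell short of the limit, and it passed under either scaling, without E1KD replicate 1 or without M1P replicate 1, which made 2 members called. Serpinb9b stood at 252 and 248 CPM in M1P, 1.54 times its mean in E1KD, with its antisense neighbour at 19.9 and 19.7 CPM.

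Between the metastasis line and the tumor line (L1P against M1P), 0 of 17 members were called by limma, where 0.743% of all genes were called higher and 0.468% lower. At an unadjusted p under 0.05 there were 4 members and 29% of all genes. Serpinh1 was at 203 and 206 CPM in M1P and at 151 and 149 in L1P, a log2 difference of -0.44 ± 0.11 (limma adjusted p = 0.012). Serpinb5, which encodes maspin, was at 1.66 and 1.86 CPM in M1P and at 0.47 and 0.83 in L1P, a difference of -0.75 ± 0.15 (limma adjusted p = 0.0026). In both genes the groups did not overlap, but the size stayed under the limit of 1. Serpinb9e, a mouse clade B gene that shares 28.4% of its 50-base words with other genes, was listed at 0 in NMuMG, at 0.63 and 0.50 CPM in M1P and at 1.30 and 1.07 CPM in L1P.

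In the second kind of library the silencing of hnRNP E1 was compared as E1KD SCR against the Empty vector, with Pcbp1 at 3.28 to 3.46 CPM in the former and 32.3 in the latter. These lines also differ in vector, a scrambled shRNA against an empty overexpression vector, so silencing and vector cannot be told apart here. Lncenc1 overlapped between E1KD SCR and the Empty vector, though it had been higher in E1KD than in NMuMG. Here 2 members were higher, Serpinh1 and Serpinb9b, and 6 were lower, Serpina1a to Serpina1e and Serpinb8, where 2.91% of all genes were higher and 3.07% lower. With the Serpina1 copies counted as 1 gene, 4 members were called. The median log2 fold change was -0.59 over the members and 0.02 over all genes. Serpinh1 was at 1.25 and 0.90 CPM with the Empty vector and at 18.7 and 21.7 CPM in E1KD SCR, 18.8-fold higher, a log2 difference of 3.36 ± 0.11 (limma adjusted p = 7.36e-12). Serpinb9b went from 5.95 and 6.85 CPM to 63.4 and 58.8 CPM, 9.55-fold higher, by 3.07 ± 0.11 on the log2 scale (limma adjusted p = 1.36e-11). Its antisense neighbour was listed at 0 in all 4 of these libraries.

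The Serpina1 copies summed to 67.1 and 54.0 CPM with the Empty vector and to 6.16 and 5.72 CPM in E1KD SCR, a log2 difference of -3.14 ± 0.12 for the sum (limma adjusted p = 4.99e-11). The hepatocyte markers were mixed here: Apoa1 was at 0.66 and 0.38 CPM with the Empty vector and at 0.027 and 0.048 in E1KD SCR, while Ttr was at 4.12 and 3.14 against 4.91 and 4.54, and Apob at 838 and 844 against 1215 and 1194. Serpinb8 was at 7.70 and 8.26 CPM with the Empty vector and at 1.35 and 1.06 in E1KD SCR, a difference of -2.03 ± 0.13 (limma adjusted p = 1.24e-08). In the first kind of library Serpinb8 had been at 3.77 and 3.02 CPM in NMuMG and at 5.22 and 3.57 in E1KD, groups that overlapped.

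Where Platr18 was silenced in these cells (E1KD Platr18 KD against the SCR libraries of the comparison just given), 3 members were lower, Serpinh1, Serpina1b and Serpina1a. Both silenced libraries carry the label of the same shRNA, so Platr18 silencing and other effects of that shRNA or line cannot be told apart. Limma called 0 higher, where 0.485% of all genes were called higher and 0.994% lower. At an unadjusted p under 0.05 in either direction there were 12 of 17 members and 30.7% of all genes. Serpinh1 was at 18.7 and 21.7 CPM in E1KD SCR and at 0.38 and 0.25 CPM in E1KD Platr18 KD. The log2 difference of -4.01 ± 0.11 (limma adjusted p = 1.71e-11) was the third largest in size of all genes tested. Serpina1b was at 3.07 and 2.91 CPM and at 0.054 and 0.068 CPM, a difference of -1.91 ± 0.12 (limma adjusted p = 5.64e-08). Serpina1a had a difference of -1.01 ± 0.11 and missed the limit of size under either scaling and without E1KD SCR replicate 1, where it was -0.95. As 1 gene, the 5 copies fell from 6.16 and 5.72 CPM to 0.122 and 0.109 CPM, by 2.64 ± 0.12 on the log2 scale (limma adjusted p = 2.63e-09). Among hepatocyte markers, Alb was lower as well, at 1.95 and 1.29 CPM in E1KD SCR and 0.62 and 0.57 in E1KD Platr18 KD. Ttr was higher, at 10.04 and 11.87 CPM, as was Apob, at 2414 and 2485.

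Serpinb9b was not called between these cells: it was at 63.4 and 58.8 CPM in E1KD SCR and at 61.8 and 69.2 CPM in E1KD Platr18 KD, overlapping groups with a log2 difference of 0.10 ± 0.11. Of the mesenchymal markers, Vim was at 619 and 684 CPM in E1KD SCR and 394 and 388 in E1KD Platr18 KD, while Cdh2 was at 87.4 and 85.0 against 101 and 95.5. Their part in the serpin values was not tested.

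Overexpression of Platr18 (the mean of clones 12 and 16 against the Empty vector, whose libraries also serve E1KD SCR) called 2 members higher, Serpinb9b and Serpinb5, and 6 lower, Serpina1a to Serpina1e and Serpinh1. The shares over all genes were 0.427% higher and 1.03% lower, and the medians -0.13 over the members and 0.01 over all genes. With the Serpina1 copies counted as 1 gene, 4 members were called. Serpinh1 was at 1.25 and 0.90 CPM with the Empty vector and listed at 0 in all 4 clone libraries. The call (limma adjusted p = 1.94e-06) was lost without Empty vector replicate 1, where the difference of log2(CPM + 1) was -0.92, and with equal sums. All 16 housekeeping genes looked at were above 0 in every library, the lowest being Gusb at 5.58 CPM. At such levels they cannot tell whether the listed 0 of Serpinh1, near 1 CPM with the Empty vector, is real. The Serpina1 copies summed to 67.1 and 54.0 CPM with the Empty vector, to 0.728 and 0.629 in clone 12 and to 8.51 and 8.27 in clone 16, a mean log2 difference of -3.95 ± 0.11 for the sum (limma adjusted p = 7.04e-12). Alb, Apoa1, Ttr and Fgb were each lower than with the Empty vector in all 4 clone libraries, and Apob was at 346 and 341 CPM in clone 12 and 822 and 801 in clone 16 against 838 and 844. Their part in the result was not tested. Of the members called higher, Serpinb9b was called against the Empty vector in clone 12 and Serpinb5 in clone 16. In clone 12 Serpinb5 went the other way, with a log2 difference of -0.32 ± 0.15 from the Empty vector that was not called.

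Set against each other (clone 16 against clone 12), the clones differed in 6 members, 5 higher and 1 lower in clone 16, where 2.71% of all genes were higher and 1.68% lower and the medians were 0.40 over the members and 0.01 over all genes. With the Serpina1 copies counted as 1 gene, 4 members were called. Serpinb5 was at 0.36 and 0.45 CPM with the Empty vector, at 0.13 and 0.11 in clone 12 and at 7.74 and 8.31 in clone 16. Clone 16 was thus higher than clone 12 by 3.01 ± 0.15 on the log2 scale (limma adjusted p = 1.36e-09). Serpinb9b went the other way, from 5.95 and 6.85 CPM with the Empty vector to 58.4 and 58.1 in clone 12 and 11.1 and 10.4 in clone 16, a difference between clones of -2.33 ± 0.11 (limma adjusted p = 7.02e-10).

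Serpinb8 was at 3.43 and 3.50 CPM in clone 12 and at 10.4 and 10.5 in clone 16, a log2 difference of 1.36 ± 0.13 (limma adjusted p = 1.32e-06). The remaining calls were Serpina1a, Serpina1b and Serpina1c, higher in clone 16 by 1.48, 1.69 and 1.08; that of Serpina1c was lost with equal sums, at 0.98. Serpinb6a, a mouse counterpart of the cathepsin G inhibitor SERPINB6 that overlaps Ripk1 and Nqo2 on the opposite strand, was at 330 and 343 CPM in clone 12, at 361 and 364 in clone 16 and at 212 and 235 with the Empty vector, and was not called in the mean of the clones (log2 difference 0.64 ± 0.13).

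**Figure D4:**
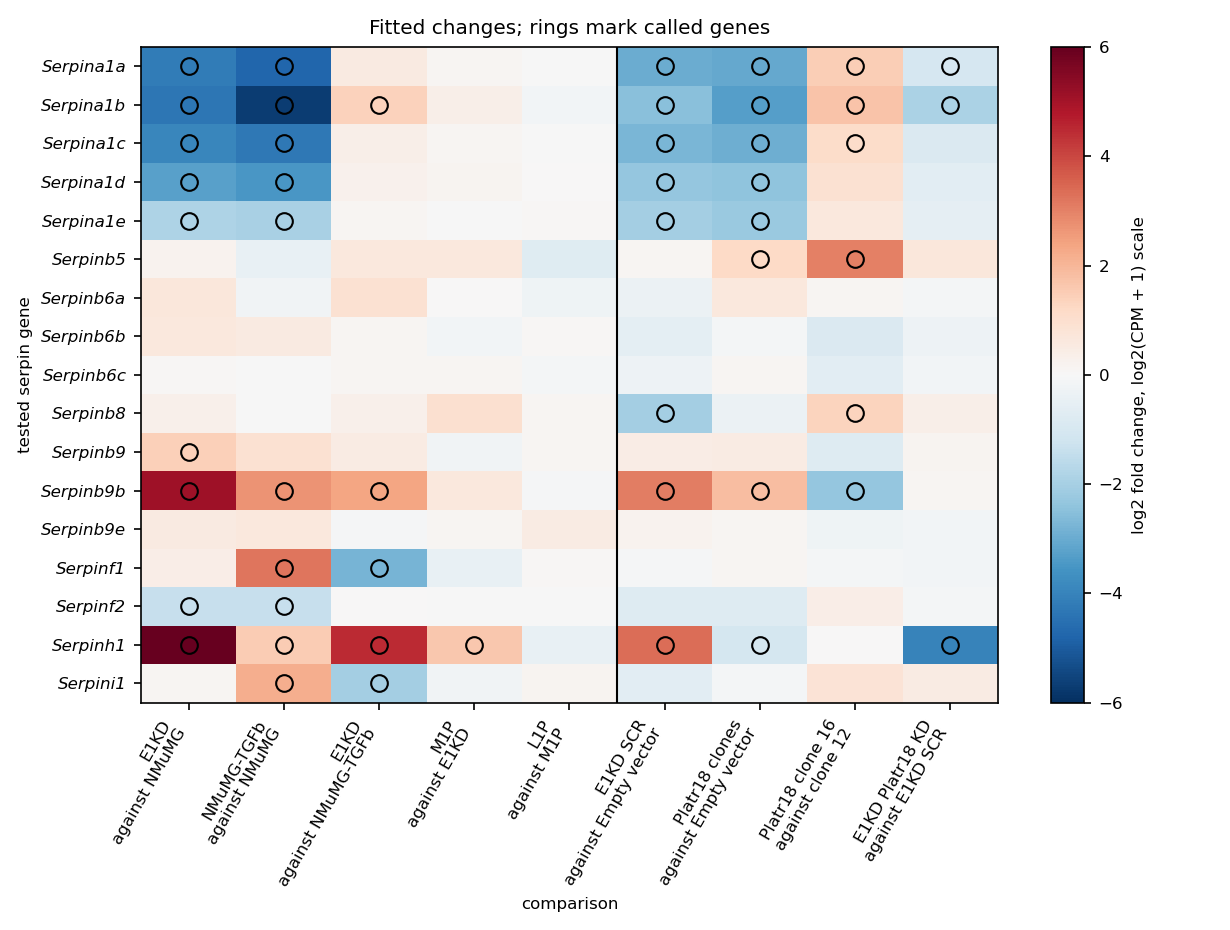
Fitted log2 fold change, on the log2(CPM + 1) scale, of the 17 tested serpin genes in 9 comparisons, the first kind of library left of the line; rings mark called genes. The Serpina1 copies are ringed as lower in E1KD, NMuMG-TGFb, E1KD SCR and the clones, and Serpinh1 is ringed in 7 comparisons, as lower only in the clones and in E1KD Platr18 KD.

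The makeup of the Serpina1 sum was read in the 4 conditions of each kind with a summed mean of at least 0.5 CPM, which leaves out NMuMG-TGFb and E1KD Platr18 KD. In the first kind Serpina1b made up 46.5% to 64.2% of the sum, Serpina1a 14.2% to 24.2%, Serpina1c 8.88% to 17.4%, Serpina1d 6.51% to 13.3% and Serpina1e 0.94% to 3.55%. In the second kind Serpina1b made up 35.3% to 50.8%, Serpina1a 16.9% to 26.4%, Serpina1c 14.1% to 24.5%, Serpina1d 7.32% to 13.03% and Serpina1e 4.08% to 8.31%. Serpina1b took a larger share in E1KD, at 62.1% and 55.9%, than in NMuMG, at 46.5% and 46.6%. Its share also went from 35.3% and 36.1% with the Empty vector to 49.9% and 50.8% in E1KD SCR, lines that also differ in vector. The share did not follow the sum throughout. In clone 12, with a lower sum than E1KD SCR, Serpina1b made up 40.8% and 43.9%, and in clone 16 37.5% and 37.7%. These shares rest on a split of reads that the copies' common sequence makes uncertain. The condition means of Serpinb6a, Serpinb6b and Serpinb9 spanned 1.93-fold, 1.59-fold and 2.80-fold in the first kind and 2.21-fold, 2.31-fold and 1.90-fold in the second. Serpinb6a was at 188 and 111 CPM in the E1KD libraries, and was called higher than NMuMG, and than NMuMG-TGFb, only without E1KD replicate 2.

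The 43 members not tested included 9 that were listed at 0 in every library, 22 whose highest value was under 0.1 CPM, 11 whose highest value lay between 0.1 and 1 CPM, and Serpinc1, which encodes antithrombin, at 0.29 to 1.02 CPM. Serpine2, which encodes protease nexin-1, was at most at 0.016 CPM and Serping1, which encodes C1 inhibitor, at most at 0.13 CPM. The Serpina3 genes, mouse counterparts of alpha-1-antichymotrypsin, reached 0.070 CPM at most (Serpina3n). The listed-at-0 members were Serpina3a, Serpina3b, Serpina3j, Serpina3k, Serpina3m, Serpinb13, Serpinb3a, Serpinb3c and Serpinb3d. Those between 0.1 and 1 CPM were Serpina7, Serpina9, Serpinb1a, Serpinb1b, Serpinb1c, Serpinb2, Serpinb7, Serpinb9c, Serpinb9f, Serpinb9g and Serping1. Below 0.1 CPM were Serpina10, Serpina11, Serpina12, Serpina16, Serpina1f, Serpina3c, Serpina3f, Serpina3g, Serpina3i, Serpina3n, Serpina5, Serpina6, Serpinb11, Serpinb12, Serpinb3b, Serpinb6d, Serpinb6e, Serpinb9d, Serpind1, Serpine2, Serpine3 and Serpini2. By place, 23 members lie in the Serpina cluster of chromosome 12, where only the 5 copies of Serpina1 were tested and the others reached 0.24 CPM at most, 15 in the Serpinb cluster of chromosome 13, of which 6 were tested, and 11 in that of chromosome 1, of which 2 were tested.

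Of 33 proteases that serpins are known to inhibit, 11 were tested. In E1KD 3 were higher and 3 lower than in NMuMG, with TGFβ 2 and 3, and in E1KD SCR 2 and 2. Of all genes tested, 6.44% were higher and 2.99% lower in E1KD, 5.85% and 7.67% with TGFβ, and 2.91% and 3.07% in E1KD SCR. Plau, the urokinase, had a mean of 0.0094 CPM in NMuMG, 7.65 in E1KD and 0.050 in NMuMG-TGFb, and was called higher in E1KD (log2 difference 3.09 ± 0.09, limma adjusted p = 6.96e-13). It was also called in E1KD SCR, at 5.57 CPM against 0.091 with the Empty vector. Plat, the tissue plasminogen activator, was called in no comparison, at means of 15.7 CPM in NMuMG and 16.3 with TGFβ. The lysosomal cathepsin Ctsl rose to 268 CPM with TGFβ from 35.9 in NMuMG (2.87 ± 0.19), and Proc, the zymogen of activated protein C, fell from 8.87 to 0.28 CPM (-2.95 ± 0.10), next to Tmprss2 (-3.20 ± 0.07). E1KD against NMuMG-TGFb called 2 higher and 2 lower, M1P, L1P, clone 16 against clone 12 and E1KD Platr18 KD 1 higher each, and the mean of the clones 2 lower, Proc and Tmprss2. Over all genes, higher and lower shares were 17.2% and 6.17% in E1KD against NMuMG-TGFb, 1.16% and 2.43% in M1P, and 0.743% and 0.468% in L1P. They were 2.71% and 1.68% in clone 16 against clone 12, and 0.485% and 0.994% in E1KD Platr18 KD. In the mean of the clones they were 0.427% and 1.03%. Over the 9 comparisons the list's median ran from -0.28 to 0.20, and that of all genes from -0.17 to 0.26.

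Of 13 cofactors and clearance receptors of serpins, 11 were tested. Gpc1, a heparan sulfate proteoglycan, was called higher in E1KD (0.018 to 41.7 CPM, log2 difference 5.38 ± 0.10) and in E1KD SCR (0.014 to 14.4 CPM, 3.92 ± 0.10), and lower in E1KD Platr18 KD (2.78 CPM, -2.02 ± 0.10) and in M1P (6.12 CPM, -2.57 ± 0.10). Vldlr, a receptor that can take up serpin and protease complexes, was called higher in E1KD (1.37 ± 0.10) and E1KD SCR (2.49 ± 0.10). It was also called higher in E1KD against NMuMG-TGFb (2.11 ± 0.10) and in clone 16 against clone 12 (0.075 to 11.8 CPM, 3.57 ± 0.10). Lrp1, which clears such complexes, was called higher with TGFβ (1.01 ± 0.20) and lower in M1P (-2.32 ± 0.20). In L1P against M1P it was called higher (10.3 to 41.4 CPM, 1.91 ± 0.20). The list held 3 higher and 0 lower in E1KD, 1 and 0 with TGFβ, 4 and 0 in E1KD against NMuMG-TGFb, 0 and 3 in M1P, 1 and 1 in L1P, 2 and 1 in E1KD SCR, 0 and 1 in the mean of the clones, 1 and 0 in clone 16 against clone 12, and 0 and 1 in E1KD Platr18 KD. The shares of all genes called in each comparison are those given above for the proteases, among them 17.2% higher in E1KD against NMuMG-TGFb. The list's median ran from -0.19 to 0.27.

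Serpinh1 works beside the enzymes of procollagen maturation in the endoplasmic reticulum, of which 15 of 18 were tested. In E1KD 2 were called higher, the prolyl 3-hydroxylase P3h2 (0.13 to 7.89 CPM, 2.94 ± 0.14) and its partner Crtap (8.29 to 19.4 CPM, 1.12 ± 0.12), and the same pair was called in E1KD SCR (2.66 ± 0.14 and 1.25 ± 0.12). With TGFβ 3 were higher, the lysyl hydroxylase Plod2 (2.21 ± 0.09), Colgalt1 (1.51 ± 0.09) and P4ha2 (1.22 ± 0.14). The median was 0.52 in E1KD and 0.69 with TGFβ, where that of all genes was 0.17 and -0.08. In M1P Plod2 was higher and P3h2 lower than in E1KD, while limma called 0 in L1P, the mean of the clones and E1KD Platr18 KD, with 4, 7 and 6 genes at an unadjusted p under 0.05, where 29%, 38.3% and 30.7% of all genes were. Clone 16 against clone 12 called 1 higher and 1 lower, with Crtap listed at 0 in clone 12 and at a mean of 8.66 CPM in clone 16, and E1KD against NMuMG-TGFb called 1 higher and 3 lower. For these counts too, the shares of all genes called are those given for the proteases.

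In a list of 17 genes made up of protease inhibitors of other families and Anxa2, which is known as a surface receptor for plasminogen and its activator rather than an inhibitor, 8 were tested. Tfpi, the inhibitor of tissue factor, was called higher in E1KD (1.55 ± 0.12), with TGFβ (1.41 ± 0.12), in E1KD Platr18 KD (1.10 ± 0.12) and in clone 16 against clone 12 (2.21 ± 0.12). Spint2, an inhibitor of epithelial surface proteases, was called lower in E1KD (94.1 to 33.8 CPM, -1.46 ± 0.13) and in E1KD SCR (-1.46 ± 0.13). With TGFβ, Timp1 and Timp2 were called higher (1.25 ± 0.16 and 1.28 ± 0.07) and Anxa2 lower (-1.43 ± 0.11). The list held 1 higher and 1 lower in E1KD, 3 and 1 with TGFβ (the 1 being Anxa2), 2 and 0 in E1KD against NMuMG-TGFb (Anxa2 and Cst3), 0 and 1 in E1KD SCR and in the mean of the clones, 1 and 0 in clone 16 against clone 12 and in E1KD Platr18 KD, and 0 and 0 by limma in M1P and L1P, with 4 genes in each at an unadjusted p under 0.05, where 56.2% and 29% of all genes were. Shares of all genes called in each comparison are again those given for the proteases. The list's median ran from -0.16 to 0.35.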

How the data were processed

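RNA was sequenced from 20 libraries, 2 for each of 10 conditions, grouped by the labels. The deposited values are CPM with 0.0001 added by the authors; per the labels and methods, reads were aligned with Bowtie2 (2.2.5) to GRCm38.p6 and quantified in Partek. Strand use is not given in the sources used here. Counts were not recovered: 86.4% to 87.8% of low values in the first kind of library, and 96.6% to 96.9% in the second, fell on whole reads within 0.05 of a read. Depth limits only the low values: 1 read is worth 0.0068 to 0.020 CPM.

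After subtraction of 0.0001, genes at 1 CPM or more in at least 2 of 20 libraries were fitted with limma 3.58.1 (R 4.3.3) on log2(CPM + 1), with 10 condition means, an intensity trend and 10 residual degrees of freedom. Adjusted p-values are Benjamini-Hochberg over all 17103 tested genes, and errors are standard errors of the fit, pooled over all conditions. The script was tested on simulated data. With 2 libraries a condition, an exact permutation test of a single gene could not pass 0.05, and none was run.

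A gene that met the rule for members is not reported here, and counts of members are over the other 60. Members and gene lists were chosen with earlier results of these data known. Named with values were up to 5 called members with the largest change in each comparison, Serpine2, Serpinf1, Serpinh1, Serpinb5, Serpinb6a, Serpinb9, Serping1 and the Serpina1 and Serpina3 copies, and up to 5 called genes of each list. Serpinb8, Serpinf2, Serpinb6b, Serpinb9e, Serpinc1 and Plat, and Serpinb9b and Serpini1 where they were not among those 5, were named after their values were seen. Alternatives were a pseudocount of 0.1, a mean of at least 5 CPM, no filter, 2 rescalings, adjusted p under 0.05, only the groups compared, a replicate block and leaving out each library; counting the Serpina1 copies as 1 gene was added after the data were seen. Sequences came from GENCODE transcripts and RefSeq promoters.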

Additional observations from a re-analysis of the deposited data

Results flagged for a closer look

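The effects of Platr18 overexpression in clone 16 and clone 12, each against the same Empty vector libraries, differed in 6 of 17 tested members by the test of the difference itself (limma, clone 16 against clone 12), where 2.71% of all genes tested were higher and 1.68% lower in clone 16. On the log2(CPM + 1) scale, Serpinb5 had a difference of effects of 3.01: its change from the Empty vector was -0.32 in clone 12 and 2.69 in clone 16. The difference for Serpinb9b was -2.33, from 3.004 in clone 12 and 0.67 in clone 16. For Serpinb8 it was 1.36, from -1.01 and 0.35. The copies Serpina1a, Serpina1b and Serpina1c, which share sequence, had differences of 1.48, 1.69 and 1.08, with all of them lower than the Empty vector in both clones. Lncenc1 was at 3092 and 3096 CPM in clone 12 and at 813 and 820 CPM in clone 16; each clone is 1 line, so its Platr18 level and its other history cannot be told apart.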

How the results depend on the processing

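Of 50 called changes of single members, 605 of 613 alternatives kept direction and call, 8 lost the call and 0 changed direction; leaving out 1 library kept 214 of 216. Counts of called members moved by over 1.5 times in 18 of 119 alternatives. A mean of at least 5 CPM, which removes low members, gave 4 in E1KD against NMuMG, 3 in NMuMG-TGFb against NMuMG, 3 in E1KD against NMuMG-TGFb, 3 in the clones against the Empty vector, 3 in clone 16 against clone 12 and 4 in E1KD SCR against the Empty vector. A pseudocount of 0.1 gave 9 in E1KD against NMuMG-TGFb, 3 in M1P against E1KD, 11 in clone 16 against clone 12 and 6 with Platr18 silenced in E1KD. Counting the Serpina1 copies as 1 gene, which by construction removes 4 members, gave 5, 6, 4 and 4 in E1KD, NMuMG-TGFb, the clones and E1KD SCR, each against its control. M1P against E1KD gave 2 with equal sums, 2 with median-of-ratios factors and 1 to 2 when 1 library was left out, Serpinb8 being the gene gained; the cause was not tested. The replicate numbers are not said to pair the libraries, and deviations of same-numbered libraries correlated from -0.39 to 0.29; with a replicate block the counts were 9, 10, 5, 1, 0, 8, 6, 3 and 8 in the order E1KD, NMuMG-TGFb, E1KD against NMuMG-TGFb, M1P, L1P, clones, clone 16 against clone 12, E1KD Platr18 KD and E1KD SCR, and changed no call.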
